A study of Ciona savignyi with 56 samples.

Results

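The genes described here are those restricted to mesenchyme at the 110-cell stage of the ascidian Ciona savignyi, measured in single blastomeres. They were chosen from the measured values. All 110-cell cells were pooled into 10 groups by the class the authors gave them, and counts were scaled to CPM, the counts of a gene per 1000000 counts of its group. A gene was a member if it reached at least 30 CPM in mesenchyme and if its CPM plus 5 was at least 2.5 times that of every other group. A run of neighbouring identifiers, none of which is described here, was dropped. Of 12172 genes, 4896 reached 30 CPM in mesenchyme and 4 were members: ENSCSAVG00000011381, ENSCSAVG00000008613, ENSCSAVG00000008164 and ENSCSAVG00000009692. The files pair no identifier with a name, so no member is given a name, a product or a role.

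Ascidian embryos divide by a fixed lineage, so that each blastomere has a name and a known fate. The mesenchyme of the tadpole trunk comes from the B line of the posterior vegetal hemisphere and later gives rise to cells of the tunic and of the adult body. In the 64-cell embryo it is held by B7.7, the sister of the muscle precursor B7.8, and by B7.3, the sister of the muscle precursor B7.4. B7.3 then divides into the mesenchyme cell B8.5 and the notochord cell B8.6, and B7.7 is still undivided in the 110-cell classes. A signal of the fibroblast growth factor (FGF) family, carried by the kinase MEK, induces mesenchyme next to muscle in ascidians. A7.6 is an A-line blastomere and the precursor of the trunk lateral cells, a second source of mesenchyme-like cells, among them blood cells.

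Polyadenylated RNA of hand-picked cells was converted to cDNA by a Smart-seq2 protocol with barcoded primers. There were 2 embryos treated with U0126, an inhibitor of MEK, at 2 ug/ml (64-cell stage, 125 cells). The untreated embryos, by number of cells per embryo, were 3 of 110 cells (317 cells measured), 3 of 64 (179 cells), 2 of 32, 2 of 16, 3 of 8, 3 of 4, 5 of 2 and 8 zygotes. The embryo was the replicate, and values per embryo are given below in the order of the authors' embryo numbers. No strain or transgene is named, and the labels do not say whether embryos of a group shared parents. The matrix holds 773 cells, of which 742 have a class and 31 are marked low quality; the study states 745 profiles. In 518 cells, from untreated embryos of 2, 4, 64 and 110 cells, the counts were UMIs, which count each tagged molecule once. In the other 255 cells, which include every U0126 cell, they were reads. How the authors assigned classes is not given in the sources used here, so a class may rest in part on the genes described. No identifier could be matched to the marker lists of mesenchyme, muscle or any other tissue, so the authors' class names were not checked against markers.

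Mesenchyme at the 110-cell stage was 10 cells, 4 of B7.7 and 6 of B8.5, with 937849 UMIs in all. A single UMI in this group is 1.07 CPM. These cells were deep, with a median of 84254 UMIs, against 29486 UMIs in the median cell of the classes other than mesenchyme and A7.6. ENSCSAVG00000011381 was the most abundant member, with 180 CPM in mesenchyme and 38.4 CPM in A7.6. ENSCSAVG00000008613 had 50.1 CPM in mesenchyme and 7.68 CPM in A7.6. ENSCSAVG00000008164 had 54.4 CPM in mesenchyme and 15.4 CPM in A7.6. ENSCSAVG00000009692 had 61.8 CPM in mesenchyme and 19.2 CPM in A7.6. A7.6 was the next highest group for all 4 members, and the ratios of CPM plus 5 were 4.27, 4.35, 2.92 and 2.76 in that order of genes. Just outside the threshold were ENSCSAVG00000004996 with a ratio of 2.45, ENSCSAVG00000011380 with 2.14 and ENSCSAVG00000006365 with 1.96. These values chose the members and are given as a description.

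The 110-cell embryos were alike for some members and not for others. In mesenchyme, ENSCSAVG00000011381 had 126.1, 185 and 206 CPM in the 3 embryos, and in A7.6 it had 32.5, 9.14 and 78.1 CPM. Every mesenchyme value of this gene lay above every A7.6 value. ENSCSAVG00000008613 had 63.1, 23.5 and 62.1 CPM in mesenchyme, and 0, 9.14 and 11.2 CPM in A7.6. These groups did not overlap either, but the A7.6 values are single UMIs. ENSCSAVG00000008164 had 54.1, 3.36 and 90.8 CPM in mesenchyme, and 0, 0 and 44.6 CPM in A7.6, so that the second embryo was low in mesenchyme and the groups overlapped. ENSCSAVG00000009692 had 36.0, 104 and 45.4 CPM in mesenchyme, and 0, 45.7 and 0 CPM in A7.6, with a partial overlap.

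Outside mesenchyme and A7.6 the members formed a sharp pair and a broad pair. ENSCSAVG00000011381 had 169 UMIs in mesenchyme and 16 in all other classes together, and 10 of those 16 were in A7.6. It averaged 13.3 ± 23.01 CPM (SD, n = 3) in B7.5, the precursor of heart and some tail muscle, where the signal was 2 UMIs in 1 embryo. In B7.6, endoderm, animal neural cells, muscle and nerve cord it had no UMI. ENSCSAVG00000008613 had 47 UMIs in mesenchyme and 5 elsewhere, 2 of them in A7.6. ENSCSAVG00000008164 had 51 UMIs in mesenchyme and 39 elsewhere, with 10.7 ± 14.6 CPM in notochord and 10.7 ± 11.1 CPM in muscle (n = 3). ENSCSAVG00000009692 had 58 UMIs in mesenchyme and 117 elsewhere, and of the other groups B7.6 alone, which includes the germline precursor and held 197681 UMIs, was at 0. Its next levels after the 61.9 ± 36.98 CPM of mesenchyme were 17.0 ± 5.56 CPM in animal neural cells, 15.2 ± 26.4 CPM in A7.6 and 14.3 ± 10.9 CPM in endoderm (n = 3), which did not differ beyond their spread. For this gene the word restricted describes a ratio, not absence from other cells.

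**Figure D1:**
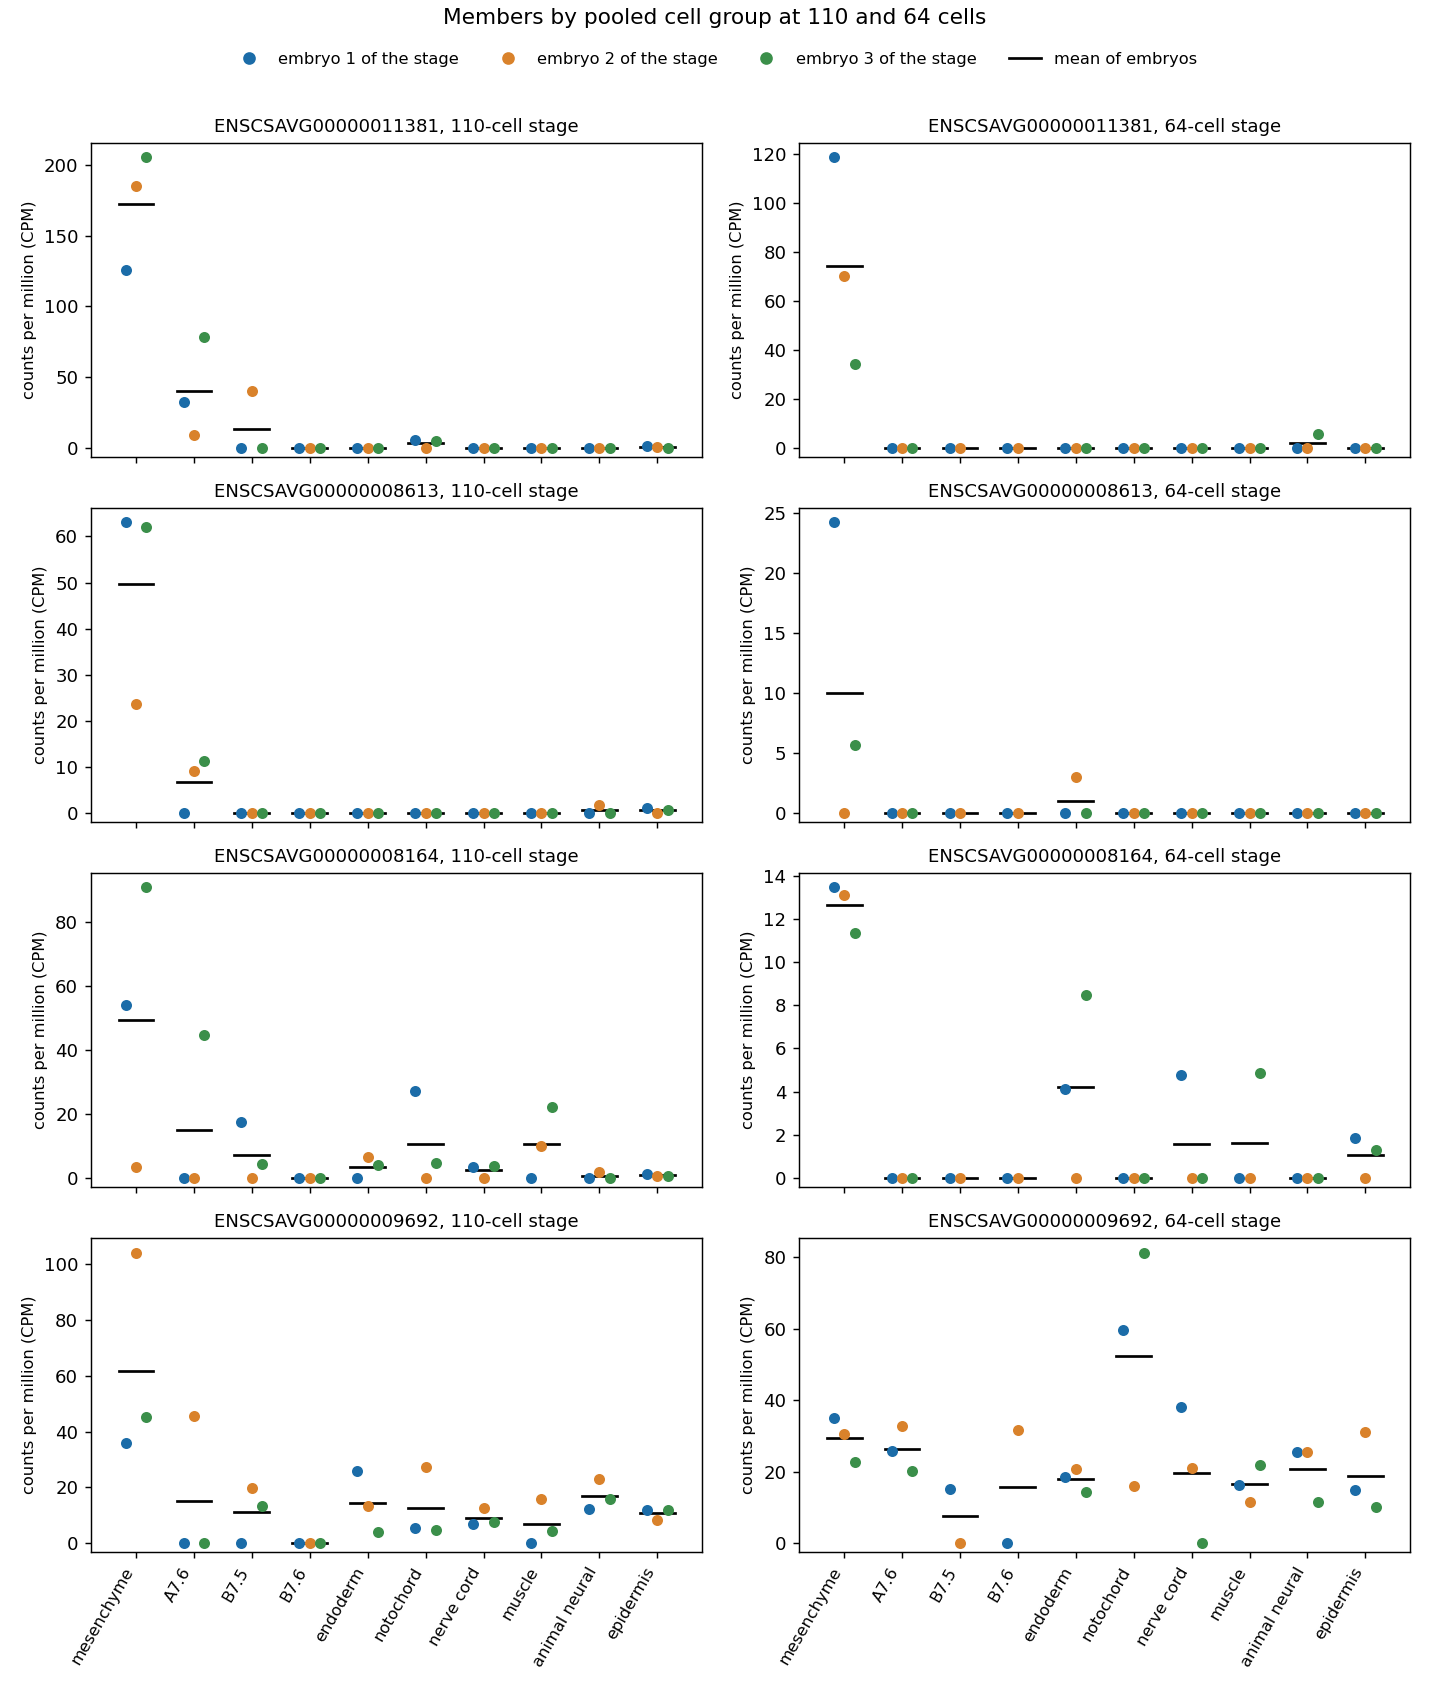
Each panel plots 1 member at 1 stage, with the CPM of a pooled cell group in each embryo as points and the mean of embryos as a bar. ENSCSAVG00000011381 is high in mesenchyme at both stages, whereas ENSCSAVG00000009692 at the 64-cell stage averages 29.5 CPM in mesenchyme and 52.3 CPM in notochord.

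The 2 classes of 110-cell mesenchyme were unequal. In the 4 B7.7 cells ENSCSAVG00000008613 had 14, 7, 13 and 7 UMIs, whereas in the 6 B8.5 cells it had 0, 0, 0, 0, 3 and 3. ENSCSAVG00000011381 had 15, 38, 36 and 30 UMIs in B7.7 cells and 5, 8, 7, 10, 10 and 10 in B8.5 cells, so it was present in every mesenchyme cell. ENSCSAVG00000008164 had 8, 0, 18 and 19 UMIs in B7.7 cells and 3, 1, 0, 1, 1 and 0 in B8.5 cells. The B7.7 cell without a UMI was the only one of embryo 2. ENSCSAVG00000009692 had 6, 23, 8 and 11 UMIs in B7.7 cells and 1, 1, 2, 6, 0 and 0 in B8.5 cells.

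The values per embryo are those of the cells the rule pooled, so they are given as a description. ENSCSAVG00000008613 had 198, 90.3 and 91.6 CPM in B7.7, against 0, 0 and 29.99 CPM in B8.5, with no overlap. ENSCSAVG00000009692 had 85.0, 297 and 87.0 CPM in B7.7, against 13.2, 36.4 and 0 CPM in B8.5, again with no overlap. ENSCSAVG00000011381 had 212, 490 and 302 CPM in B7.7, against 85.9, 77.3 and 100 CPM in B8.5, also with no overlap. ENSCSAVG00000008164 had 113, 0 and 169 CPM in B7.7, against 26.4, 4.55 and 4.999 CPM in B8.5, and the groups overlapped. Over the pooled B8.5 cells ENSCSAVG00000008613 and ENSCSAVG00000008164 had 10.5 CPM each and ENSCSAVG00000009692 had 17.5 CPM. These 3 genes therefore reached the 30 CPM of the rule through B7.7, and their choice bears on the direction. ENSCSAVG00000011381 had 87.5 CPM in B8.5 alone, above 30 CPM, but A7.6 had 38.4 CPM of it. With B8.5 alone as mesenchyme the rule chose 0 genes, so ENSCSAVG00000011381 too met the fold of the rule only through B7.7. Its choice bears on the direction as well. With the embryo as a block, edgeR's quasi-likelihood test called 2 of 4 members higher in B7.7, and 0.33% of 5159 genes tested, but nothing is read from that count. Neither call held when any 1 embryo was left out or without the block.

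Applied to B7.7 as the only mesenchyme class, the rule chose 21 genes, the 4 members among them. With B8.5 alone it chose 0 genes. With A7.6 left out of the other groups, a setting added after seeing the data, it chose 9 genes.

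**Figure D2:**
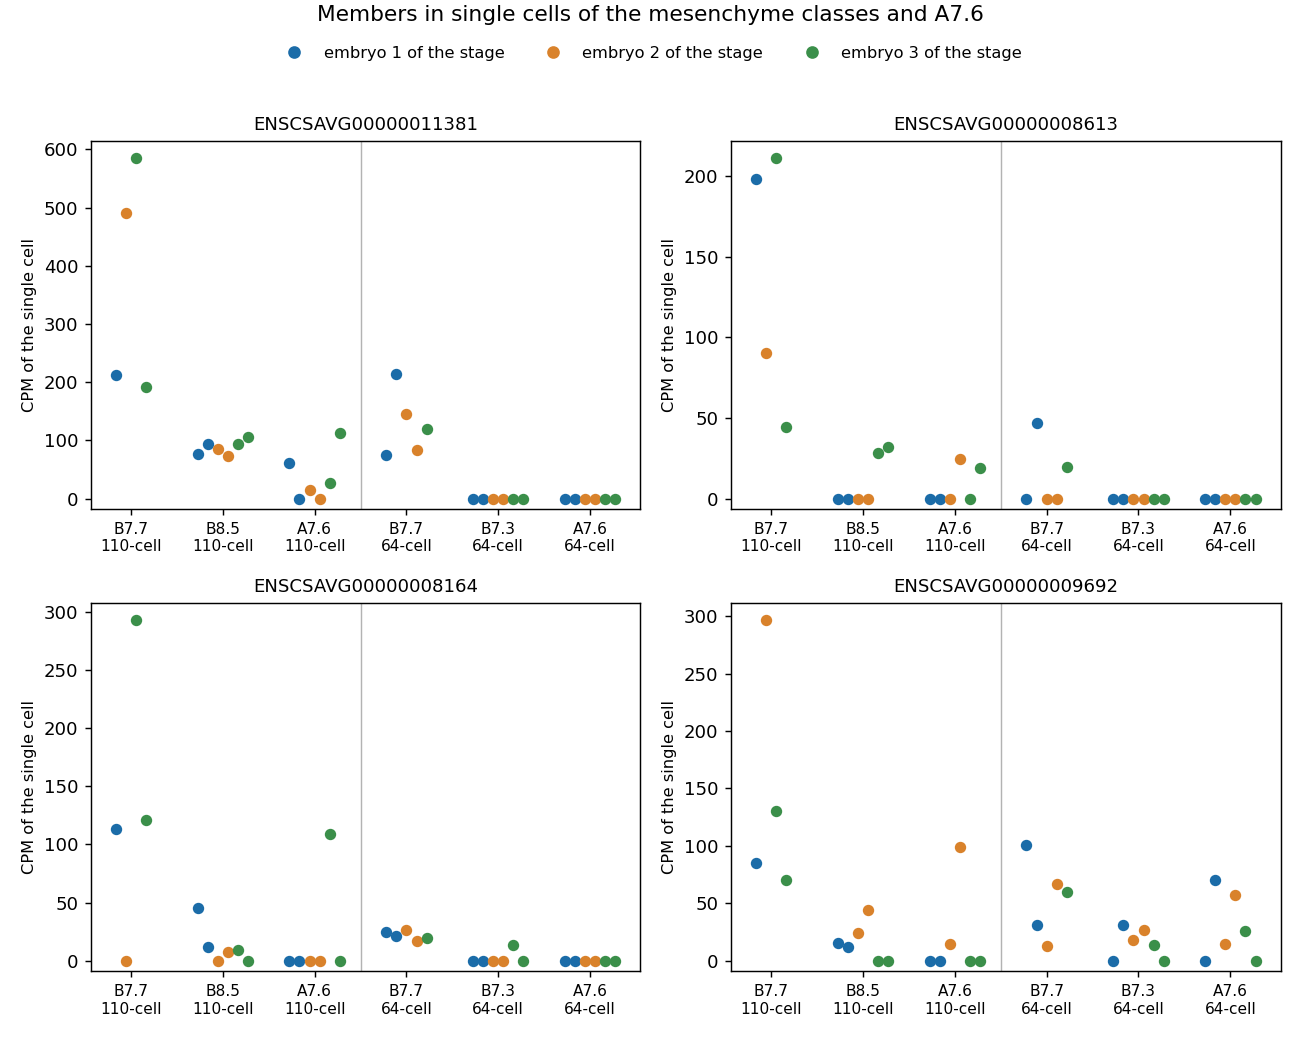
The panels plot the CPM of each member in every single cell of B7.7, B8.5 and A7.6 at the 110-cell stage (left of the line) and of B7.7, B7.3 and A7.6 at the 64-cell stage (right of it), coloured by embryo. At the 64-cell stage ENSCSAVG00000011381 has UMIs in all 5 B7.7 cells and in none of the 6 B7.3 and 6 A7.6 cells.

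The 64-cell embryos were not used by the rule, and mesenchyme there was 11 cells, 5 of B7.7 and 6 of B7.3, with 775900 UMIs. ENSCSAVG00000011381 had 118, 70.0 and 34.1 CPM in mesenchyme. In the 9 other groups it had 2 UMIs in all, both in animal neural cells, so the groups did not overlap. It was higher in mesenchyme than in the mean of the other groups (edgeR quasi-likelihood test with the embryo as a block, log2 fold change 7.05, SE 0.71, adjusted p = 6.99e-12). Of the 4 members, 2 had enough counts for this test and 1 of those rose, beside 0.987% of 5572 genes that were higher in mesenchyme. The fitted fold change rests on groups at 0. The pooled counts gave 66 UMIs in mesenchyme and 2 elsewhere, a ratio of 292 (exact 95% interval 77.7 to 2462, for counting error only). With DESeq2 the log2 fold change was 5.80 and adjusted p = 0.454, so the call depended on the tool.

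Set against muscle, the sister fate, ENSCSAVG00000011381 was again higher in 64-cell mesenchyme (edgeR log2 fold change 7.19, SE 1.296, adjusted p = 0.000105). It was 1 of 2 members tested, where 0.269% of 5572 genes were higher in mesenchyme than in muscle. Muscle (B7.4 and B7.8, 12 cells) had no UMI of it, which makes mesenchyme at least 24.4-fold higher against a floor of 3 UMIs over the group. DESeq2 made no call here either (adjusted p = 0.808).

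ENSCSAVG00000008613 had 24.2, 0 and 5.69 CPM in 64-cell mesenchyme, and its only UMI elsewhere was in endoderm. It had too few counts for the test, with 10 UMIs in mesenchyme, all in B7.7. ENSCSAVG00000008164 had 13.5, 13.1 and 11.4 CPM in mesenchyme, a narrow range, and did not reach 9 CPM in any other pooled group of any embryo. Within pooled endoderm, however, the class B7.1/2 had 5 UMIs and reached 17.0 CPM in 1 embryo, above pooled mesenchyme in any embryo. ENSCSAVG00000008164 too was below the filter of the test, with 10 UMIs in mesenchyme and 11 elsewhere. When genes with at least 10 counts were tested in place of those past the filter, all 4 members entered and 2 were called, ENSCSAVG00000011381 and ENSCSAVG00000008613. ENSCSAVG00000009692 had 35.01, 30.6 and 22.7 CPM in mesenchyme, and the group with the highest mean was notochord with 59.8, 15.9 and 81.3 CPM. The notochord values rest on 9 UMIs in 8 cells. Over the pooled cells notochord had 38.4 CPM (95% interval 17.6 to 72.9) and mesenchyme 30.9 CPM (19.8 to 46.0), which did not differ beyond counting error. ENSCSAVG00000009692 did not pass the test of mesenchyme over the other groups (edgeR log2 fold change 0.62, SE 0.51, adjusted p = 0.749). At this stage its level does not bear out the name mesenchyme-restricted.

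Within 64-cell mesenchyme the signal came from B7.7. ENSCSAVG00000011381 had 3 and 41 UMIs in the B7.7 cells of embryo 1, 11 and 5 in those of embryo 2 and 6 in that of embryo 3. All 6 B7.3 cells were at 0. In CPM per embryo, B7.7 had 190, 118 and 119, against 0, 0 and 0 in B7.3, at least 18.9-fold higher over the pooled cells. In this comparison, added after seeing the data, it passed (edgeR log2 fold change 7.79, SE 1.43, adjusted p = 0.000486), beside 0.213% of 5162 genes that were higher in B7.7. The muscle sister cell B7.8 was also at 0 in all embryos, with B7.7 at least 12.7-fold higher (edgeR log2 fold change 7.69, SE 1.67, adjusted p = 0.00362; 0.174% of 5162 genes were higher in B7.7). Both calls were lost without embryo 1, which holds 44 of the 66 UMIs, without the block and with DESeq2, and the second also without embryo 2.

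The other members were lower in these cells. ENSCSAVG00000008613 had 0 and 9 UMIs in the B7.7 cells of embryo 1, 0 and 0 in embryo 2 and 1 in embryo 3, and none in the 6 B7.3 cells. ENSCSAVG00000008164 had 1 to 4 UMIs in each of the 5 B7.7 cells, against a single UMI in 1 of the 6 B7.3 cells. ENSCSAVG00000009692 had 1 to 6 UMIs in every B7.7 cell, against 0 to 3 UMIs in B7.3 cells. In A7.6 at this stage ENSCSAVG00000011381, ENSCSAVG00000008613 and ENSCSAVG00000008164 had no UMI in 6 cells with 249162 UMIs. A single UMI in this group is 4.01 CPM.

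Shares of cells with a UMI follow depth as well as level. At the 110-cell stage ENSCSAVG00000011381 was seen in 10 of 10 mesenchyme cells, ENSCSAVG00000009692 in 8, ENSCSAVG00000008164 in 7 and ENSCSAVG00000008613 in 6. In the 281 cells of the classes other than mesenchyme and A7.6 the shares were 1.78%, 24.6%, 7.47% and 1.07% in the same order of genes. After thinning each cell to 10000 UMIs, which left out 3 shallower cells among the other classes, the genes were seen in 4, 4, 2 and 5 of the 10 mesenchyme cells. The other classes then had 1.08%, 11.2%, 2.52% and 0.360%. In thinned B7.7 cells ENSCSAVG00000008613 and ENSCSAVG00000009692 were seen in 4 of 4.

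Earlier stages divided the members once more. ENSCSAVG00000011381 and ENSCSAVG00000008613 had no count in any cell of the 1-, 2-, 4-, 8-, 16- or 32-cell stage. Counts of the 1-, 8-, 16- and 32-cell stages are reads, and no read column, treated or untreated, has either gene. Stage and kind of count therefore cannot be told apart for these zeros. In the UMI stages of 2 and 4 cells a floor of 3 counts is 4.07 and 2.80 CPM. At the 32-cell stage B6.4, the mother of B7.7, held 1324550 reads in 3 cells without a read of either gene. In whole embryos ENSCSAVG00000011381 had 11.1, 14.3 and 21.8 CPM at the 110-cell stage, and 15.9, 6.33 and 3.37 CPM at the 64-cell stage. ENSCSAVG00000008613 had 5.20, 2.18 and 6.51 CPM at the 110-cell stage, and 3.25, 0.395 and 0.422 CPM at the 64-cell stage. Levels of whole embryos mix the share of mesenchyme cells with the level per cell, and these cannot be told apart in them. ENSCSAVG00000008164 was at most 5.89 CPM in every embryo up to the 32-cell stage. In 32-cell embryos it had 11.3 CPM in pooled B6.1, an endoderm precursor, with 0 CPM in 1 embryo and 17.4 CPM in the other. It had 6.58 CPM in B6.2, the mother of B7.3, with 6.55 and 6.60 CPM in the embryos, and no read in B6.4.

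ENSCSAVG00000009692 was present from the zygote on. It had 27.9 to 88.3 CPM in the 8 zygotes (median 53.0) and 47.1 to 158 CPM in the 5 embryos of the 2-cell stage (median 107). At the 64-cell stage whole embryos had 22.4, 24.5 and 13.9 CPM, against 112, 66.8 and 97.6 CPM at the 4-cell stage, with no overlap. This was a fall (edgeR quasi-likelihood test over all UMI embryos, log2 fold change -2.13, SE 0.37, adjusted p = 0.00157). It was the only member with enough counts for the test, and 3.52% of 5598 genes fell. All 4-cell embryos were in 1 library without 64-cell cells, so stage and library cannot be told apart. In reads, it had 60.2 and 50.9 CPM at the 32-cell stage, against 104, 82.3 and 99.5 CPM at the 8-cell stage. The groups did not overlap but the difference missed the threshold (edgeR log2 fold change -0.82, SE 0.28, adjusted p = 0.209; unadjusted p = 0.00681; 1.08% of 5914 genes passed). At the 110-cell stage it had 12.5, 20.6 and 13.2 CPM, a difference from the 64-cell stage that did not pass (edgeR log2 fold change -0.38, SE 0.35, adjusted p = 0.999; 0.0357% of 5598 genes passed). In the pooled B7.7 cells it had 131 CPM at the 110-cell stage and 43.1 CPM at the 64-cell stage. The 110-cell value ranged from 85.0 to 297 CPM between embryos. The rule chose the gene through that value, so the pair is given as a description.

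**Figure D3:**
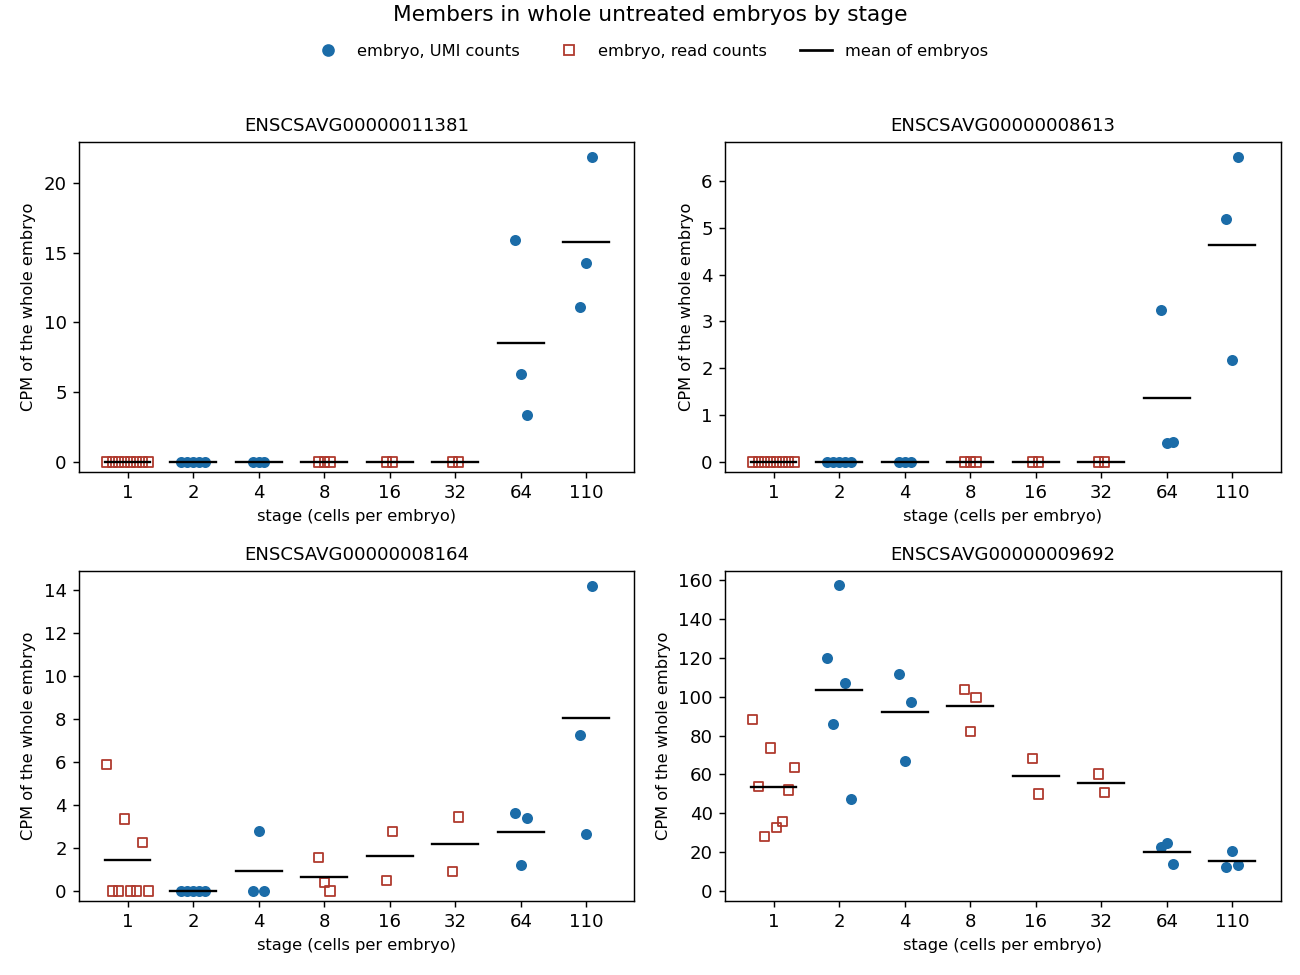
Points are whole untreated embryos and bars the mean of embryos, in CPM, by number of cells per embryo; filled circles are UMI counts and open squares read counts. ENSCSAVG00000011381 and ENSCSAVG00000008613 are at 0 up to the 32-cell stage and in every read column, whereas ENSCSAVG00000009692 is highest in early embryos.

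Treated embryos were compared with untreated embryos of the same stage. Every treated cell holds reads and every untreated cell of this stage holds UMIs, so treatment and kind of count coincide. Differences between treated and untreated embryos, with any tool or embryo left out, therefore do not show whether the members depend on MEK. The authors gave treated embryos 8 coarser classes, and B7.3 and B7.7 share 1 of them, B7.3/7. It held 8 cells with 1897762 reads in the treated embryos, against 11 cells with 775900 UMIs in untreated embryos merged the same way. In B7.3/7 ENSCSAVG00000011381 had 0 and 0 CPM in treated embryos, against 118, 70.0 and 34.1 CPM in untreated embryos, at least 53.8-fold lower against a floor of 3 reads over the group. Treated cells had a median of 4.10 reads per UMI, so 3 reads may be of 1 molecule. Folds against floors of reads, here and below, would be smaller for a floor of 3 molecules. The groups did not overlap, and ENSCSAVG00000011381 was lower in treated embryos (edgeR quasi-likelihood test, log2 fold change -8.20, SE 1.27, adjusted p = 0.00431, added after seeing the data). It was 1 of 2 members tested, where 1.71% of 5441 genes were lower in treated embryos. The call held without each embryo in turn, with adjusted p between 0.00720 and 0.0207, and with DESeq2 (adjusted p = 3.37e-05).

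ENSCSAVG00000008613 had 0 and 0 CPM in treated B7.3/7, against 24.2, 0 and 5.69 CPM in untreated B7.3/7, at least 8.153-fold lower over the pooled cells. One untreated embryo was at 0 as well, so the groups overlapped. ENSCSAVG00000008164 had 0 and 0 CPM in treated B7.3/7, against 13.5, 13.1 and 11.4 CPM in untreated B7.3/7, also at least 8.153-fold lower and without overlap. Both had too few counts for the test. In the other treated classes ENSCSAVG00000008164 was still seen, with 41 reads in all treated cells and up to 9.20 CPM in A7.4/8 and 8.49 CPM in B7.4/5/8 of 1 embryo. ENSCSAVG00000009692 had 16.9 and 3.37 CPM in treated B7.3/7, against 35.01, 30.6 and 22.7 CPM in untreated B7.3/7. These values did not overlap, but the difference missed the threshold (edgeR log2 fold change -1.32, SE 0.88, adjusted p = 0.451).

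Across all 125 treated cells, with 22539070 reads, ENSCSAVG00000011381 and ENSCSAVG00000008613 had no read, where a floor of 3 reads is 0.133 CPM. Treatment and kind of count cannot be told apart, since every treated cell holds reads and every untreated 64-cell cell holds UMIs. The untreated read columns are of stages up to 32 cells, where both genes were at 0, so no read column of the matrix has either. Of 8629 genes with at least 10 UMIs in untreated 64-cell embryos, 54 (0.626%) had no read in treated embryos, and 13 had no read in any read column, ENSCSAVG00000008613 with 11 UMIs among them. Of 6986 genes with at least 50 UMIs in untreated 64-cell embryos, 8 (0.115%) had no read in treated embryos, and 3 had no read in any read column. Those 3 were ENSCSAVG00000011378, ENSCSAVG00000011379 and ENSCSAVG00000011381. Both counts were chosen after the values had been seen.

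Within treated embryos, only ENSCSAVG00000009692 could be tested for B7.3/7 over the other classes, and it did not pass (edgeR log2 fold change -0.80, SE 1.00, adjusted p = 0.989; 0.469% of 7458 genes passed). The change of that contrast with treatment did not pass for it either (edgeR interaction, log2 -1.26, SE 1.03, adjusted p = 0.916, unadjusted p = 0.229; 0.0294% of 6814 genes passed). With DESeq2 the interaction had adjusted p = 0.826. For ENSCSAVG00000011381 the interaction could not be fitted, since all treated classes were at 0.

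**Figure D4:**
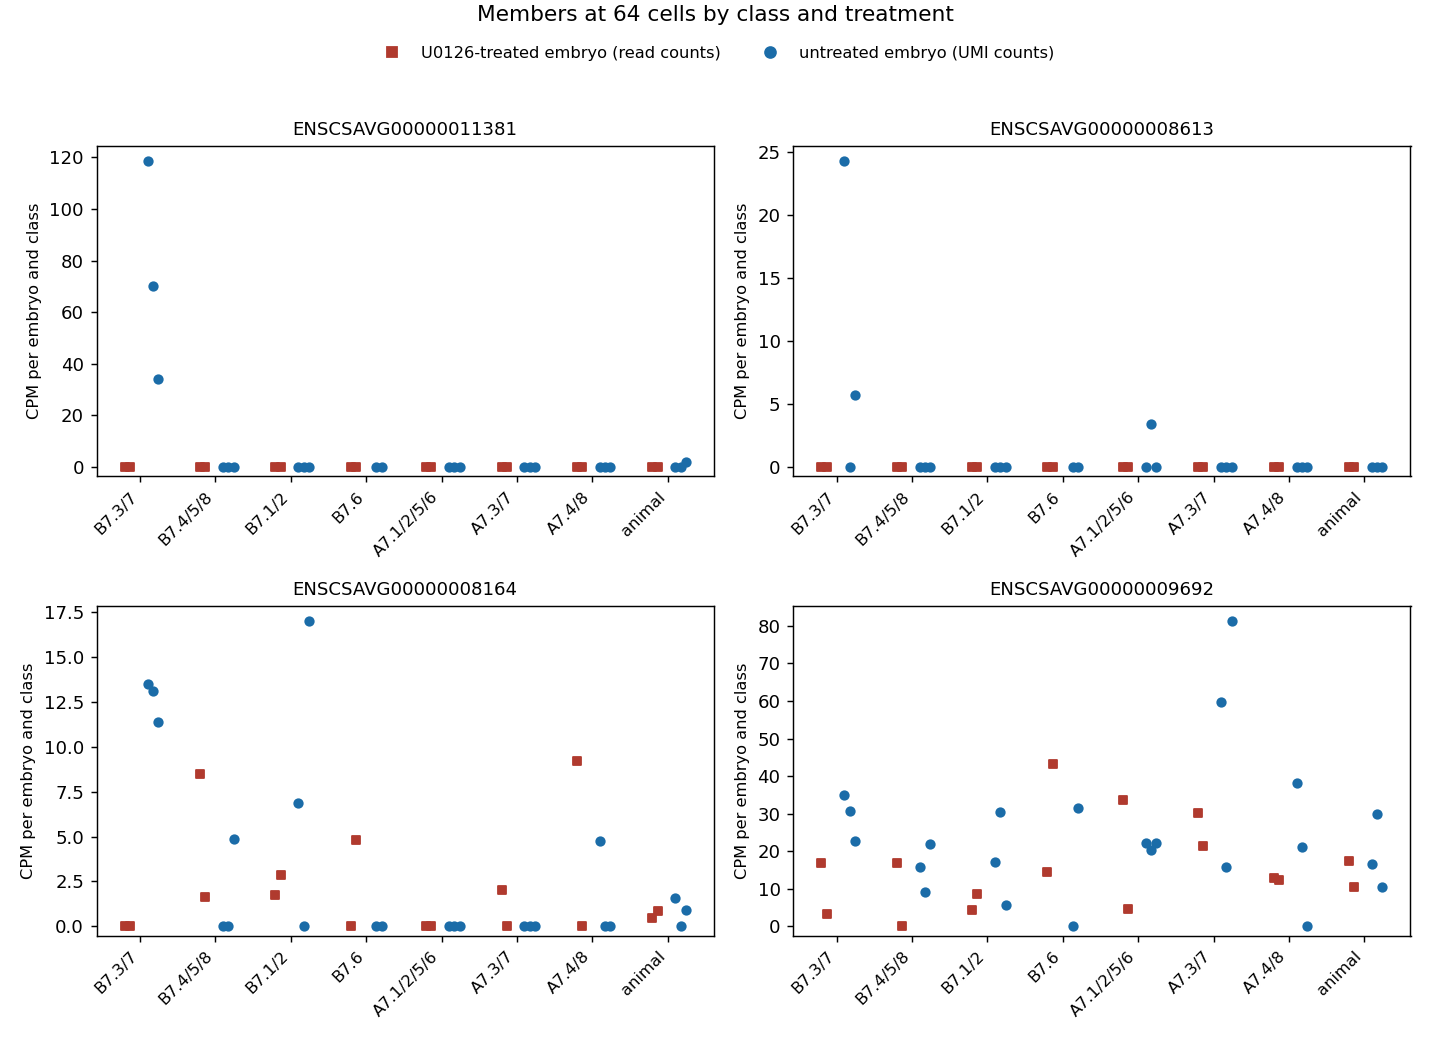
Each panel plots 1 member at the 64-cell stage, with the CPM of each class in each U0126-treated embryo (squares, reads) left of that in each untreated embryo (circles, UMIs). In B7.3/7 ENSCSAVG00000011381, ENSCSAVG00000008613 and ENSCSAVG00000008164 are at 0 in both treated embryos.

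Of the 3 genes just outside the threshold, ENSCSAVG00000011380 carries the identifier next to ENSCSAVG00000011381. ENSCSAVG00000011378 and ENSCSAVG00000011379, which precede it, were added after their values were seen. Identifier neighbours are often neighbours in the genome, but no coordinates were used here. At the 110-cell stage mesenchyme had 272 CPM of ENSCSAVG00000011378, 127 CPM of ENSCSAVG00000011379 and 96.0 CPM of ENSCSAVG00000011380. A7.6 had 138, 72.9 and 42.2 CPM of them in the same order, more relative to mesenchyme than for the member. The A7.6 signal was mostly that of embryo 3, where ENSCSAVG00000011378 had 335 CPM, against 16.3 and 45.7 CPM in the other embryos. At the 64-cell stage the B7.7 cells of embryos 1 to 3 had 337, 162 and 139 CPM of ENSCSAVG00000011378, and B7.3 had none of the 3 genes. All 3 were without a read in treated embryos, as the member was. The next identifiers on either side were also added after their values were seen. ENSCSAVG00000011377 had no UMI in mesenchyme at either stage. It had 164 reads (7.28 CPM) in treated embryos, against 7 UMIs (0.913 CPM) in untreated 64-cell embryos, where treatment and kind of count coincide. ENSCSAVG00000011382 had 5 UMIs in 110-cell mesenchyme and none in 64-cell mesenchyme. If the genes share sequence, reads could have been split among them, which was not tested.

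ENSCSAVG00000006365 differed from this run in that both 64-cell mesenchyme classes had it. It had 94.98, 73.8 and 139 CPM in B7.7, and 21.5, 32.2 and 31.9 CPM in B7.3. In treated B7.3/7 it had no read, at least 39.9-fold lower than in untreated B7.3/7. In all treated cells it had 1 read, against 58 UMIs in untreated 64-cell embryos. Treatment and kind of count cannot be told apart here, and ENSCSAVG00000006365 had no read in untreated embryos of 1, 8, 16 or 32 cells. A7.6 of 110-cell embryo 1, at 97.5 CPM from 6 UMIs, set the value that kept it out of the rule. ENSCSAVG00000004996 had 1 of its 17 UMIs of whole 64-cell embryos in mesenchyme. At the 110-cell stage it had 42.5, 90.3 and 87.0 CPM in B7.7, against 6.61, 0 and 0 CPM in B8.5.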

How the data were processed

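Per the labels' protocols, cells were picked by capillary from single dissociated embryos, reverse transcribed with barcoded primers, pooled by stage and tagmented. The authors deposited 1 matrix of whole-number counts per gene and a cell table; totals equal the table's UMI number in 518 cells and its read number in 255. Per the submitters' processing notes, CASAVA 1.8, DESeq2 and Seurat were used; the sources used here name no aligner, build or annotation. The 48 barcodes recur between the 41 libraries (56 entries); no 2 cells share library and barcode, and no 2 columns are identical.

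Members and lists were chosen with earlier results of these data known. Of their identifiers, 0 matched a named gene. Named were all members, members called in a comparison, and the 3 genes nearest outside the threshold. Counts were summed per embryo and class; low-quality cells entered whole-embryo sums only. Tests used edgeR 4.0.16 (R 4.3.3; TMM, filterByExpr, quasi-likelihood, Benjamini-Hochberg at 0.05 over all tested genes), with the embryo as a block between classes, since classes of 1 embryo are paired by origin. DESeq2 1.42.0 was an alternative, and the steps were tested on simulated data. Other work used Python 3.11.15, pandas 2.3.3, numpy 2.4.6, scipy 1.17.1 (exact binomial intervals) and matplotlib 3.10.9. Intervals and floors of 3 counts cover counting error only, and floors in reads do not allow for several reads of a molecule. P-values between classes measure how far class differences vary between embryos, with the spread shared over the classes of a fit and moderated across genes. Those between stages or treatments measure the spread between embryos. Embryos may share parents.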

Additional observations from a re-analysis of the deposited data

How the results depend on the processing

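Counts of members that passed each test, and the number of genes chosen, were recomputed under other settings. Of 101 such counts, 81 stayed within 1.5 times the value reported. This share says little, since the tests called 2 members at most and several called 0 with few members testable, so those counts could hardly move. For 64-cell mesenchyme over the other groups, 1 of 2 members passed, against 2 of 4 with genes of at least 10 counts and 0 with DESeq2; over muscle, DESeq2 gave 0. For 110-cell B7.7 over B8.5, 2 passed, against 1 with genes of at least 10 counts, 1 with DESeq2, and 0 (lowest and highest) when any embryo was left out. Nothing is read from the counts of this comparison, since the same cells chose the members. The embryo was the pairing unit, and without the replicate block 0 members passed in this comparison, in 64-cell B7.7 over B7.3 and in B7.7 over B7.8, where 1 had passed in each of the last 2. The blockless fit changed no other call. DESeq2 also gave 0 for these 2, and leaving out an embryo gave 0 to 1. The causes were not tested. The rule chose 4 genes, and 2 at a fold of 3, 21 with B7.7 alone, 0 with B8.5 alone, 9 without A7.6 among the other groups, and 4 to 5 when an embryo was left out (2, 3 and 2 of the members, with ENSCSAVG00000011381 and ENSCSAVG00000008613 in each). No setting reversed a direction.

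The members rest on 10 mesenchyme cells with 47 to 169 UMIs each, and A7.6 on 6 cells in which 1 UMI is 3.84 CPM, so that the threshold is set by few molecules. Leaving out an embryo of the treated-only comparison was not run, since no residual degrees of freedom remain. Reads and UMIs coincide with U0126 and with stage.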

Other observations

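In each 110-cell embryo left out when the rule was applied to the other embryos, ENSCSAVG00000011381 had ratios of mesenchyme to the next group, in CPM plus 5, of 3.50, 4.24 and 2.53 in embryos 1, 2 and 3. The 4.24 was set by B7.5 at 39.8 CPM from 2 UMIs. ENSCSAVG00000008613 had 11.2, 2.02 and 4.16 in the same embryos. Its 2.02 was below the 2.5 of the rule and was set by A7.6 at 9.14 CPM from 1 UMI. The ratio of 11.2 was set by epidermis at 1.09 CPM, since A7.6 of embryo 1 had no UMI of this gene. A single UMI in that A7.6 group is 16.3 CPM. ENSCSAVG00000008164 was chosen without embryo 2 and had 0.559 in it. ENSCSAVG00000009692 was chosen by none of the 3 reduced sets. Of the further genes these sets chose, none had a ratio above 1.16 in the embryo left out.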
